A study of Mus musculus with 2 samples.

Results

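T cells and natural killer (NK) cells were described in single-cell RNA counts from the hypertrophied mouse left ventricle. They were 109 of 26178 barcodes, chosen by their unique molecular identifiers (UMIs, the counted molecules). A barcode was selected on at least 2 UMIs over Skap1, Cd3e, Cd3d, Cd3g, Trac, Trbc2, Nkg7 and Ms4a4b, from 2 or more of these 8 genes. It also had to hold 0 UMIs over the B-cell genes Cd79a, Cd79b, Ms4a1 and Pax5, at most 1 over the macrophage genes C1qa, C1qb and C1qc, and 0 of the endothelial gene Cdh5. The cardiomyocyte genes Ttn, Myh6, Ryr2 and Tnnt2 had to stay under 2.5% of its UMIs outside mitochondrial genes. The levels of all these genes in the selected cells are therefore a description and support nothing.

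The study compared wild-type with p53 knockout mice, both 6 weeks after transverse aortic constriction (TAC), an operation that narrows the aorta and so raises the pressure the left ventricle works against. Each group is 1 library made from a mixture of 3 hearts, and an unoperated group was not analysed here. The labels name neither the deleted exons of the knockout nor a promoter or cell type that limits it, and they give no age, sex or strain. They give the cell type as cardiomyocytes and name a 10x Chromium 3' kit, while the barcodes are written as 3 blocks of 9 bases, and the T and NK cells are not the labelled cell type. With 1 library per group the spread between animals is unknown and no test was possible, so all intervals are 95% and cover counting error only. Genotype, library and the sex of the mice cannot be told apart: Xist, transcribed from the inactive X, had 0 UMIs in T and NK cells under the wild-type label and 94 in 51 of 89 cells of the other, whereas the Y-linked gene Uty had 13 UMIs in 10 of 20 cells and 0 UMIs.

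T cells recognise peptides with an antigen receptor whose chains (Trac and Trbc1 or Trbc2 in most T cells, Trdc in gamma-delta T cells) signal through the CD3 proteins and the zeta chain encoded by Cd247. CD4 T cells help other immune cells, CD8 T cells kill infected cells, and NK cells kill without a rearranged antigen receptor and carry receptors of the Klr and Ncr families. T cells enter the pressure-loaded heart, and in mice their loss has been linked to milder heart failure after TAC.

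The library labelled wild-type held 16060 barcodes at a median of 940 UMIs. The other library, labelled p53 knockout, held 10118 at a median of 1540. The 2 libraries had 105 barcode sequences in common, none of them selected in both, and 2 selected barcodes of the library labelled p53 knockout were also present in the other. Trp53, the gene of p53, had 1 UMI (40.1 nuclear-gene CPM, counts per 1e6 UMIs outside mitochondrial genes) in the selected cells labelled wild-type and 13 UMIs (102 CPM) in those labelled p53 knockout, a log2 ratio of 0.81 (interval -1.40 to 6.75). Its 3' reads may lie outside the deleted part, so this checks nothing.

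T and NK cells made up 20 of 16060 barcodes in the library labelled wild-type, or 0.125% (Clopper-Pearson interval 0.0761 to 0.192), and 89 of 10118, or 0.880% (0.707 to 1.08), in the library labelled p53 knockout. The intervals did not overlap. Depth differed between the libraries, and after every barcode was thinned to 500 UMIs the rule found 0.0810% (0.0431 to 0.138) and 0.712% (0.557 to 0.895). The library labelled wild-type also held more barcodes with the 4 cardiomyocyte genes at 2.5% or more, 28.8% against 6.95%. Of the barcodes under that limit, T and NK cells were 0.175% and 0.945%. B cells chosen by a like rule were 20 and 115 barcodes, 0.125% and 1.14%, and macrophages were 253 and 330, 1.58% and 3.26%. All 3 immune classes thus had a larger share in the library labelled p53 knockout, and shares of barcodes do not give numbers of cells in the heart. Whether the mixing of hearts or the dissociation moved these shares was not tested.

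The selected cells were of similar depth in both libraries, with a median of 1302 UMIs and 821 genes (range 685 to 2688 UMIs) under the wild-type label and 1371 UMIs and 880 genes (529 to 3859) under the p53 knockout label. Their summed nuclear-gene counts were 24924 and 128015 UMIs, so that 1 UMI was worth 40.1 and 7.81 CPM. Levels in the 20 cells labelled wild-type are correspondingly coarse, and 3 UMIs there already equal 120 CPM.

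Of the 8 genes that chose the cells, Skap1, an adaptor of T-cell adhesion signalling, and Ms4a4b, a membrane protein of T cells, gave most of the UMIs. Skap1 stood at 2126 CPM (interval 1593 to 2781) under the wild-type label and at 2414 CPM (2152 to 2698) under the p53 knockout label, and Ms4a4b at 1685 and 1703 CPM. The antigen receptor genes were lower, with Trbc2 at 441 and 586 CPM, Trac at 120 and 281 CPM and the CD3 genes between 120 and 361 CPM. Nkg7, a granule membrane protein of cytotoxic lymphocytes, had 80.2 and 133 CPM. Skap1 was detected in 19 of 20 and 78 of 89 cells and Trac in only 2 and 22. In the other barcodes of the same library these genes had 0.112 to 7.09 CPM and 0.661 to 16.2 CPM.

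**Figure D1:**
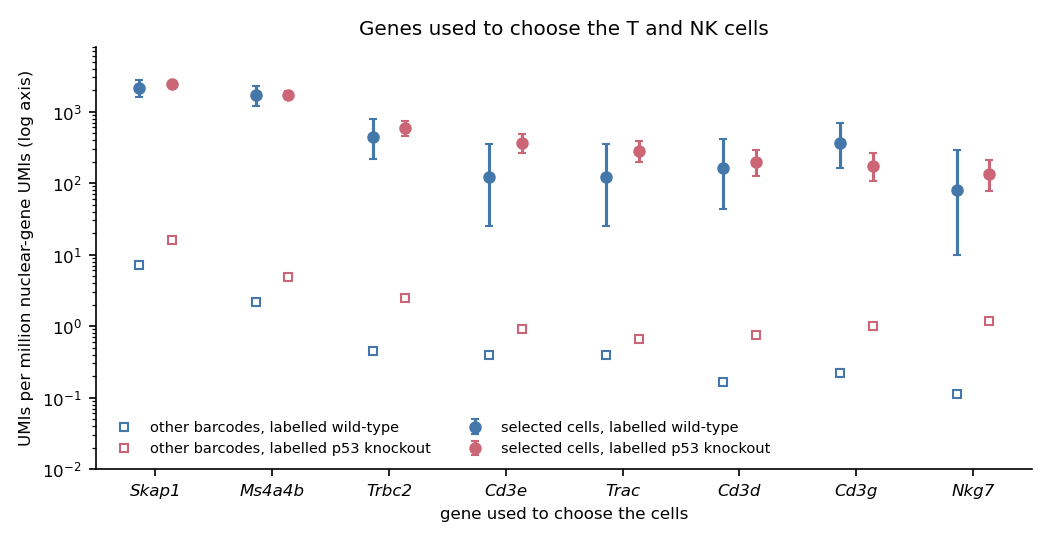
Level of each of the 8 genes used to choose the cells (CPM, log axis) in the selected cells (filled circles, with exact 95% Poisson intervals) and in all other barcodes (open squares) of the libraries labelled wild-type (blue) and p53 knockout (red). Skap1 and Ms4a4b lie at 1685 CPM or above in the selected cells of both libraries, and no gene passes 16.2 CPM in the other barcodes.

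The threshold did not fall in a gap of the counts, so the numbers of selected cells depend on it. Of the selected cells, 3 and 8 had exactly 2 UMIs of the 8 genes, 2 and 14 had 3, and 15 and 67 had 4 or more. Just outside, 21 and 30 barcodes had 2 or more UMIs that all came from 1 gene, in 16 and 20 cases Skap1, and 56 and 120 had a single UMI. The other conditions removed 2 and 23 barcodes that had passed on the 8 genes.

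The label was checked in part on 9 T-cell genes that the rule did not use (Themis, Cd247, Trbc1, Il7r, Lck, Prkcq, Cd2, Cd5 and Cd28). At least 1 UMI of these was present in 18 of 20 and 84 of 89 selected cells, against 4 of 20 and 23 of 115 B cells and 9 of 253 and 17 of 330 macrophages. Their summed level was 5015 CPM (4175 to 5975) and 5773 CPM (5364 to 6204) in the selected cells. It was 183 and 217 CPM in B cells and 42.3 and 33.4 CPM in macrophages. These B cells and macrophages held no UMI of the rule's genes, so their low level of other T-cell genes is a weak contrast. Trbc1 is a near-identical copy of the rule gene Trbc2, so it is not independent of the rule. Themis, Cd247, Trbc1, Il7r and Prkcq are also among the 20 leading genes of these same cells, given below. Cells with exactly 2 UMIs of the rule's genes had 3565 and 3913 CPM. Barcodes just outside, with 2 or more UMIs of 1 gene, had 1553 (1069 to 2181) and 1510 (1144 to 1956) CPM, and those with 1 UMI had 237 and 211 CPM. Barcodes with none had 49.0 and 45.4 CPM. The intermediate level just outside shows that the barcodes left out still carried T-cell transcripts, so the counts of 20 and 89 cells are smaller than the number of barcodes with T-cell RNA.

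**Figure D2:**
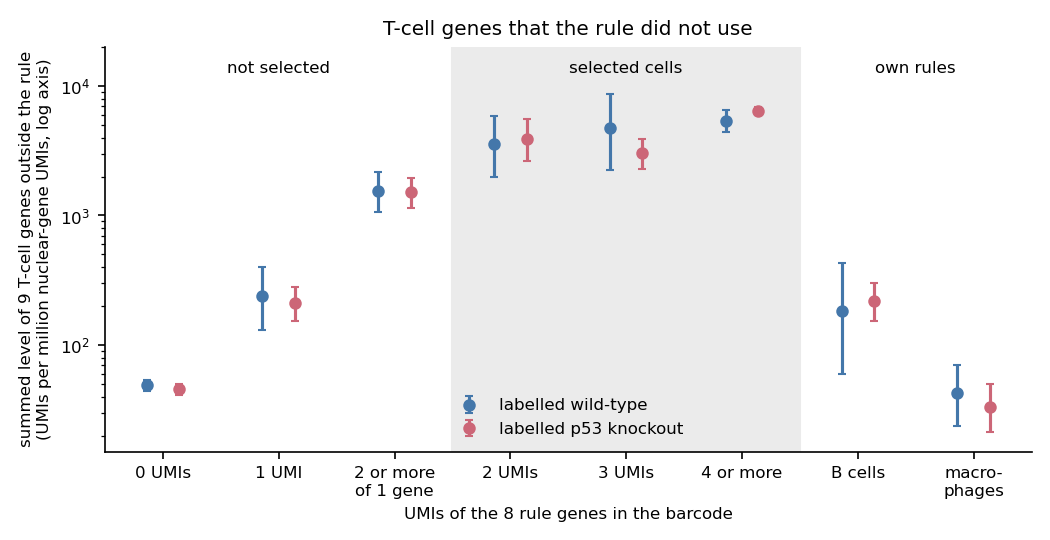
Summed level of 9 T-cell genes outside the rule (CPM, log axis, exact 95% Poisson intervals) by the UMIs of the 8 rule genes in a barcode, and in B cells and macrophages chosen by rules of their own, for the libraries labelled wild-type (blue) and p53 knockout (red). Selected cells (shaded) lie between 3024 and 6424 CPM, and barcodes with no UMI of the 8 genes lie at 49.0 and 45.4 CPM.

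Across all genes, 95 of 398 genes with at least 10 UMIs (23.9%) were at least 4-fold higher in the selected cells than in the other barcodes of the library labelled wild-type, and 388 of 3344 (11.6%) in the library labelled p53 knockout. Of 391 genes that reached 10 UMIs in both libraries, rule genes left out, 60 passed 4-fold in both. Ranked by the lower of the 2 ratios, the leading 20 genes included Gm2682, Trbc1, Themis, Il7r, Il23r, Sidt1, Prkcq, Stat4, Cd226, Cd163l1, Il18r1, Cd247, Rinl, Ptpn22, Tespa1, Ikzf3, Il18rap, Ikzf1 and Tox. Among them were proteins acting at or below the T-cell receptor (Trbc1, Cd247, Themis, Prkcq), receptors for interleukins (Il7r, Il23r, Il18r1, Il18rap) and transcription factors (Stat4, Ikzf1, Ikzf3, Tox).

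The gene at the top has no name of its own. Gm2682 (ENSMUSG00000115681, chromosome 15, 60120540 to 60187408, minus strand, mm10) had 73 UMIs in 14 of 20 cells labelled wild-type, or 2929 CPM, and 408 UMIs in 62 of 89 cells labelled p53 knockout, or 3187 CPM. That is more than the level of Skap1 in both libraries. The ratio over other barcodes was 448-fold and 285-fold, and the B cells of the libraries held 1 UMI each. Between the libraries its log2 ratio was 0.11 (-0.24 to 0.50).

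Themis (chromosome 10, 28668360 to 28883818), a signalling protein of T-cell development, had 33 UMIs in 8 cells (1324 CPM, 359-fold over other barcodes) under the wild-type label and 140 UMIs in 49 cells (1094 CPM, 186-fold) under the p53 knockout label. The interleukin 7 receptor gene Il7r (chromosome 15, 9505788 to 9530176) had 1003 and 1211 CPM, 438-fold and 121-fold over other barcodes. Both genes were close between libraries, with log2 ratios of -0.29 (-0.83 to 0.32) and 0.25 (-0.34 to 0.94). Trbc1, a constant segment of the receptor's beta chain, was 439-fold and 198-fold over other barcodes. Trbc1 and Trbc2 are near-identical copies, so the split of reads between them is uncertain. By contrast Ikzf3, a transcription factor of B and T cells, and Ptpn22, a phosphatase of both, also had 124 and 86 UMIs in the B cells labelled p53 knockout.

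**Figure D3:**
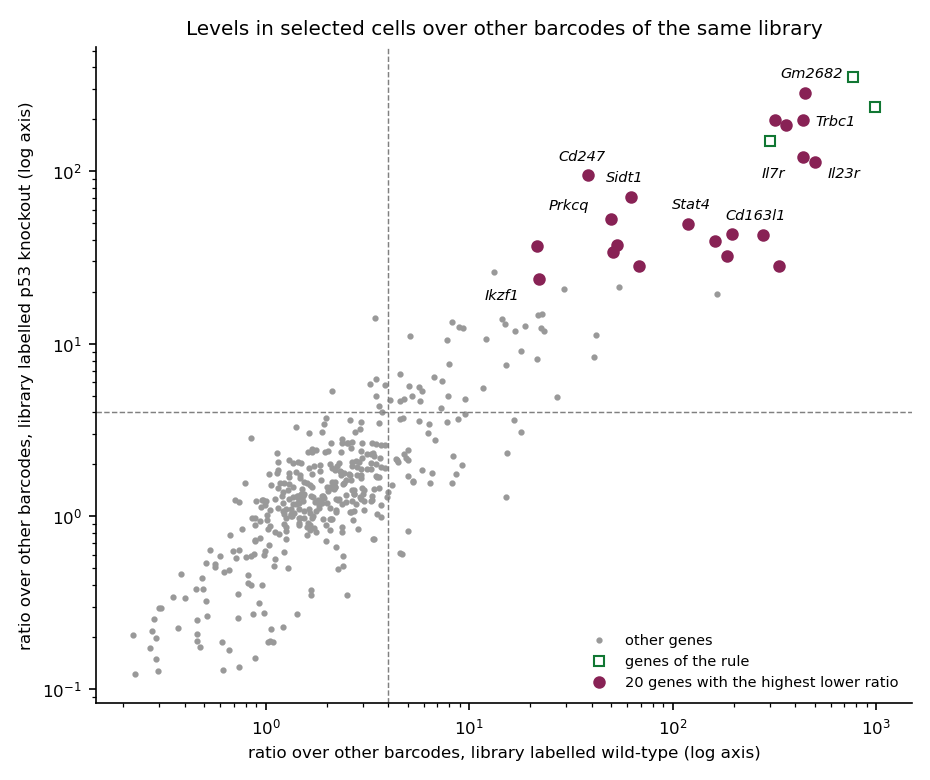
Ratio of the level in the selected cells over all other barcodes of the same library, labelled wild-type (horizontal) and p53 knockout (vertical), both on log axes, for genes with at least 10 UMIs in the selected cells of each library; dashed lines mark 4-fold. The 20 leading genes outside the rule (red) range from 21.5-fold to 285-fold by their lower ratio, with Gm2682 highest; the 3 genes of the rule with enough UMIs are green squares.

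The zeta chain gene and Cd3e are shown by sequence because they encode parts of 1 receptor complex. The zeta chain gene was far above the other barcodes, while Cd3e is a gene of the rule and its level supports nothing. The 250 bases before the RefSeq start (GRCm38.p6) are given 5' to 3' on the gene's strand, with each match of AGGAAGT or its reverse complement, a core bound by ETS transcription factors, in capitals. Cd247 is at chr1:165788431-165788680 on the plus strand and Cd3e at chr9:45009612-45009861 on the minus strand.
Cd247: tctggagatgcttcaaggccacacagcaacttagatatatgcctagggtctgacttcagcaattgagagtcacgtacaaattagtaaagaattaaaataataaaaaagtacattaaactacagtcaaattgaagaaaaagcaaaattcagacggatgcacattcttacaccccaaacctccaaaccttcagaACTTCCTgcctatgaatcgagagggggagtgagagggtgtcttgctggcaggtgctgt
Cd3e: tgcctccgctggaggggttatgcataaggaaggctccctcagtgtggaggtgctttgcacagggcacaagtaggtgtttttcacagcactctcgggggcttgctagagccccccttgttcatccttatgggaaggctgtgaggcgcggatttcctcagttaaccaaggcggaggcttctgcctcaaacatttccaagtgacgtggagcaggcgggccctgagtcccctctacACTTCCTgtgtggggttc
Of the promoters of the same length in the RefSeq table, 7.69% held this motif and 14.1% held TGTGGT, a core bound by RUNX factors, on either strand. Of the 20 leading genes 13 were in the table with 19 promoters, and 3 and 1 of those held the motifs. Among the other CD3 genes, whose promoters are not printed, Cd3d held 1 match of AGGAAGT or its reverse complement and Cd3g held 0. These matches are letters in a window and the counts do not bear on binding.

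Receptor genes split the cells. Of the cells labelled wild-type 15 had a UMI of Cd3e, Cd3d, Cd3g, Trac or Trbc2 and 5 had none, and of those labelled p53 knockout 71 had one and 18 had none. This split uses genes of the rule, and the values that follow are levels in 1 library. Receptor UMIs here mean UMIs of these 5 genes only, and Trbc1, Cd247 and Trdc were not counted. In the library labelled p53 knockout the 18 cells without receptor UMIs held all UMIs of the NK receptors Ncr1 (4 UMIs), Klrb1c (2 UMIs) and Klre1 (7 UMIs), while the 71 cells with receptor UMIs held 0 of each. Gzma, a protease of cytotoxic granules, had 526 CPM without (14 UMIs in 3 cells) and 49.3 CPM with receptor UMIs (5 UMIs in 2 cells). Of the Gzma UMIs 11 were in 1 cell, which had no receptor UMI. Il2rb, the receptor chain for interleukins 2 and 15, had 864 CPM (8 cells) and 207 CPM (11 cells). Klrk1, an activating receptor of NK and CD8 T cells, stood at 714 CPM (5 cells) and 187 CPM (7 cells). Zeb2, a transcription factor of mature NK cells, was at 789 CPM (8 cells) and 148 CPM (8 cells). The adaptors Tyrobp and Fcer1g were at 263 and 338 CPM without (4 and 5 cells) and at 9.86 and 59.2 CPM with receptor UMIs (1 and 3 cells). These levels thus come from a few cells of each group. Other cytotoxic genes did not follow this order. Klrd1 was at 150 CPM without and 207 CPM with receptor UMIs, Ccl5 at 150 and 296 CPM, Ctsw at 75.2 and 187 CPM and Eomes at 37.6 and 49.3 CPM.

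Genes of T cells showed the opposite order. Il7r was at 1469 CPM with and 226 CPM without receptor UMIs, Themis at 1252 and 489 CPM, and the kinase Lck at 730 and 301 CPM. Cd8b1 had 15 UMIs with and 0 UMIs without, and Cd4 had 15 UMIs and 1 UMI. The cells without receptor UMIs were not free of T-cell genes: Lef1 stood at 639 CPM and Trbc1 at 451 CPM there, close to the 759 and 365 CPM of the others. Of these 18 cells, 6 held Trbc1 (12 UMIs) and 4 held Cd247 (6 UMIs), which also encode receptor chains. The median depth was 1216 UMIs in the cells without and 1393 UMIs in those with receptor UMIs. At such depth a missing receptor UMI does not make a cell an NK cell. The 5 cells labelled wild-type without receptor UMIs held 5556 nuclear-gene UMIs, so 3 UMIs equal 540 CPM, and they had 0 UMIs of Ncr1, Klrb1c, Klre1 and Gzma.

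**Figure D4:**
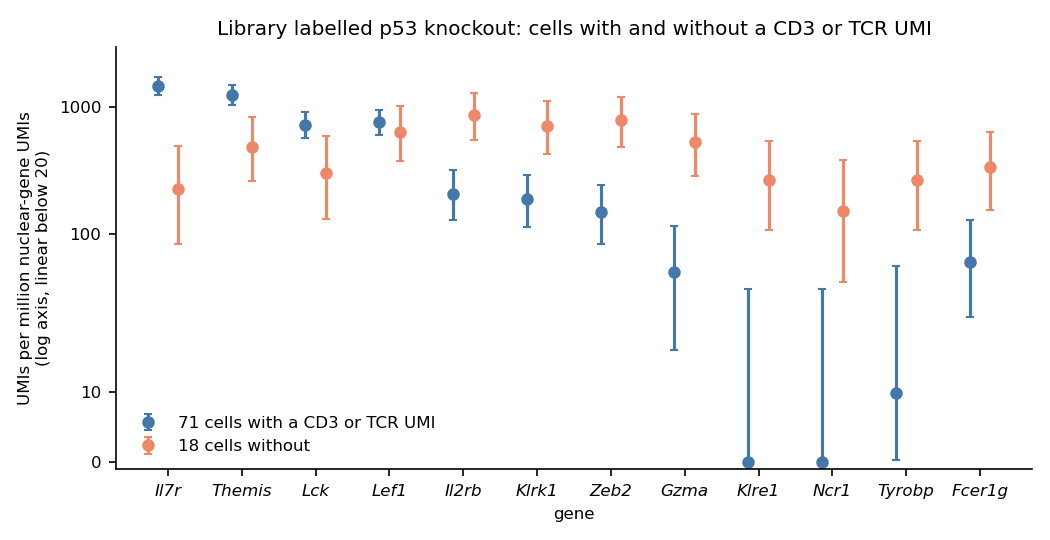
Level of 12 genes (CPM, log axis that is linear below 20, exact 95% Poisson intervals) in the 71 cells with (blue) and the 18 cells without (orange) a UMI of Cd3e, Cd3d, Cd3g, Trac or Trbc2, in the library labelled p53 knockout. Il7r is at 1469 and 226 CPM, and Il2rb, Klrk1, Zeb2 and Gzma are higher in the cells without. Gzma was found in only 3 of those 18 cells.

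Lineage genes were sparse. With all UMIs, Cd4 was found in 1 of 20 and 12 of 89 cells, Cd8a or Cd8b1 in 4 and 19 cells, and no cell held both Cd4 and a Cd8 gene. At least 1 of 8 NK receptor genes (Ncr1, Klrb1c, Klre1, Klra4, Klra7, Klra8, Klra9 and Klri2) was found in 0 and 10 cells, of which 3 also had a receptor UMI and 0 a Cd8 gene. The Klra genes are a family of close copies, so their counts are uncertain. Foxp3, the transcription factor of regulatory T cells, was found in 0 and 4 cells. No UMI of Cd4, Cd8a, Cd8b1, the 8 NK receptor genes or Trdc was found in 12 and 46 cells, which could not be placed. Of the lineage lists 3 genes each reached 10 UMIs. The CD8 list had 1 higher and 2 lower (median -0.32), the CD4 list 2 and 1 (median 0.36), the regulatory list 1 and 2 (median -1.19) and the list of group 2 innate lymphoid cells 2 and 1 (median 0.25).

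After thinning to 500 UMIs per cell, which left out none of the selected cells, a Cd4 UMI was present in 0 of 20 cells labelled wild-type, where 3 cells would be 15%, and in 6.74% (2.51 to 14.1) of cells labelled p53 knockout. The share with a Cd8 gene was 10.0% (1.24 to 31.7) and 6.74% (2.51 to 14.1), and unthinned 4 of 20 and 19 of 89 cells had one. The share with Ncr1, Klrb1c or Klre1 was 0 of 20 and 5.62% (1.85 to 12.6). These levels are near that of 1 UMI per cell, and no difference between the libraries was detectable at this depth. The same genes were found in at most 0.285% of thinned cardiomyocyte-gene barcodes, whose unthinned medians were 1040 and 1704 UMIs, and in 0 of 20 and 0 of 115 B cells, where 3 cells would be 15% and 2.61% and the exact upper limits are 16.8% and 3.16%.

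Genes of naive and central memory T cells stood further apart. Lef1, Tcf7 or Ccr7 (2 transcription factors and a receptor for entry into lymph nodes) had a UMI in 2 of 20 thinned cells labelled wild-type, or 10.0% (1.24 to 31.7), and in 36 of 89 labelled p53 knockout, or 40.4% (30.2 to 51.4). Unthinned, the shares were 30.0% (11.9 to 54.3) and 60.7% (49.8 to 70.9). The thinned intervals overlapped between 30.2 and 31.7%, and cardiomyocyte-gene barcodes showed 0.194% and 0.427%. B cells had 10.0% and 3.48%. This group of 3 genes was chosen after values had been seen. Among the cells with a Cd8 gene, 4 of 4 and 14 of 19 also had a UMI of these genes, and 0 of 1 and 11 of 12 of those with Cd4 did.

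Between the libraries, 348 of 1875 genes with at least 20 UMIs over both were at least 2-fold higher under the p53 knockout label (18.6%) and 250 at least 2-fold lower (13.3%). The median log2 ratio over these genes was 0.08, and median-of-ratios scaling would shift all ratios by 0.15. Among genes with at least 10 UMIs, the minimum used for the lists, 826 of 3941 (21%) were at least 2-fold higher and 721 (18.3%) lower, with a median of 0.06. Ratios past 2-fold were therefore common in these cells, and each list is read against these shares.

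Naive and central memory genes included 11 that were higher and 2 that were lower of 13 measured, 3 of them at least 2-fold higher and 0 lower, with a median log2 ratio of 0.25. Lef1 (chromosome 3, 131110471 to 131224356) had 7 UMIs in 4 cells (281 CPM) and 94 UMIs in 37 cells (734 CPM), a log2 ratio of 1.30 (0.29 to 2.74). Tcf7, its paralogue, stood at 161 and 414 CPM (1.21, -0.07 to 3.30). Klf2, a transcription factor of T cells that recirculate, had 1 UMI and 39 UMIs in 24 cells, a log2 ratio of 2.36 (0.36 to 8.26). In the other barcodes the log2 ratio was 1.19 for Lef1, 0.89 for Klf2 and -0.44 for Satb1. Klf2 stood higher there, at 247 and 458 CPM, than in the selected cells, at 40.1 and 305 CPM. Its level therefore does not mark the selected cells. Satb1 (0.50), Bach2 (0.57) and S1pr1 (0.35) had intervals that included 0, and Ccr7 was at 120 and 102 CPM. The 3 genes past 2-fold of 13 are close to the share of all genes, and without the 11 and 33 cells that held 2 or more fibroblast or mural UMIs or were in the top 5% of UMIs, the median was -0.24.

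In the list of proximal T-cell signalling, 14 genes were higher and 5 lower of 19, 4 and 2 of them past 2-fold, with a median of 0.45. Ptprc, the CD45 phosphatase of leukocytes, was at 1846 CPM (1351 to 2462) and 2882 CPM (2596 to 3192), a log2 ratio of 0.63 (0.20 to 1.12). Its log2 ratio was 1.25 in the other barcodes, 0.42 in B cells and 0.15 in macrophages. Prkcq, a protein kinase C of the T-cell synapse, was at 802 and 1265 CPM (0.63, -0.02 to 1.41). Lat, the membrane scaffold of T-cell receptor signalling, had 0 UMIs and 29 UMIs in 20 cells. Its log2 ratio was 0.91 against a floor of 3 UMIs, with an exact lower bound of 0.52. Grap2, an adaptor that binds Lcp2, had 3 UMIs in 3 of 20 cells and 159 UMIs in 52 of 89 cells, that is 120 CPM (24.8 to 352) and 1242 CPM (1056 to 1451). Its log2 ratio was 3.15 (1.79 to 5.66), and Grap2 was singled out after its values were seen. Lcp2 itself went the other way, from 401 CPM to 148 CPM (-1.47, -2.61 to -0.17). Without the cells named above the list's median was -0.30.

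All 5 measured genes of innate and gamma-delta T cells were at least 2-fold lower under the p53 knockout label, with a median of -2.09, but few cells carried them. Cd163l1 (chromosome 7, 140218267 to 140231145), a scavenger receptor of interleukin-17-producing gamma-delta T cells, had 19 UMIs in 3 cells (762 CPM) against 10 UMIs in 2 cells (78.1 CPM), a log2 ratio of -3.25 (-4.55 to -2.11). Il23r (chromosome 6, 67422932 to 67491855), the receptor for interleukin 23, had 14 UMIs in 2 cells (562 CPM) against 17 UMIs in 4 cells (133 CPM), a log2 ratio of -2.09 (-3.19 to -0.95). A single cell labelled wild-type, with 2688 UMIs in all, held 13 UMIs of Cd163l1, 13 of Il23r, 5 of Blk, 5 of Maf and 1 of Cd3g. Without it, Cd163l1 was at 266 CPM and Il23r at 44.4 CPM.

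That profile recurred under the p53 knockout label. The cell with most of these UMIs there held 8 of Cd163l1, 9 of Il23r, 4 of Trdc, 5 of Blk and 11 of Il18r1, and a further cell held 2, 6 and 1 of Cd163l1, Il23r and Trdc. In all, 4 of 20 and 4 of 89 cells had a UMI of Il23r or Cd163l1, and all 8 had a CD3 or receptor UMI. Thinned, the shares were 10.0% (1.24 to 31.7) and 3.37% (0.701 to 9.54). Once the cells with fibroblast or mural UMIs or in the top 5% of UMIs were left out, the share under the wild-type label was 0% and the ratio of Cd163l1 was 1.31, so the difference rests on those cells.

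Genes of NK receptors had a median log2 ratio of 1.01 over 9 measured genes, 7 higher and 2 lower, 5 and 1 past 2-fold, and 0.14 with the 4 genes at 0 UMIs under the wild-type label set to the floor. Il2rb was at 281 and 344 CPM (0.21, -0.87 to 1.69), Klrd1 at 161 and 195 CPM (0.14, -1.25 to 2.27) and Klrk1 at 361 and 297 CPM (-0.34, -1.36 to 0.95). Clnk, a signalling adaptor, was the gene past 2-fold lower, with 8 UMIs in 3 cells (321 CPM) and 7 UMIs in 4 cells (54.7 CPM), a log2 ratio of -2.54 (-4.25 to -0.90). Gzma (chromosome 13, 113093825 to 113100981) had 0 UMIs, an upper bound of 148 CPM, and 19 UMIs in 5 cells, 11 of them in 1 cell. Without the cells named above the median was -1.20.

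The granule list was split, with 4 higher and 3 lower of 7 and 2 and 1 past 2-fold (median 0.45, with the floor 0.30). Ctsw was at 241 and 164 CPM, Srgn, the granule proteoglycan, at 281 and 195 CPM, and Fasl at 120 and 62.5 CPM, all with intervals of the ratio that included 0. Of 20 genes of cytokines and chemokines 4 were measured and all 4 were higher, 1 past 2-fold (median 0.90). The chemokine Ccl5 had 2 UMIs in 1 cell and 34 UMIs in 12 cells, a log2 ratio of 1.43 (-0.24 to 4.83), and Ltb was at 120 and 242 CPM (0.81, -0.67 to 3.36). All 4 were also higher in the other barcodes, with log2 ratios of 1.69 (Ccl5), 3.08 (Ltb), 1.12 (Tnfsf8) and 1.17 (Tgfb1). The direction was therefore not particular to the selected cells.

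Inhibitory receptors and genes of residence held both higher and lower genes, in small numbers. Of 6 inhibitory genes 2 were higher and 4 lower, 0 and 3 past 2-fold (median -0.73). Ctla4, the highest, was at 80.2 and 148 CPM (0.60, -1.16 to 4.03). Tox, a transcription factor of chronically stimulated T cells that also acts in NK and innate lymphoid development, was at 1003 CPM (649 to 1481) and 500 CPM (385 to 638), a log2 ratio of -1.02 (-1.69 to -0.28). Cd96 was at 361 and 102 CPM (-1.85, -3.17 to -0.42). In the other barcodes of the libraries the log2 ratio of Tox was also negative, at -1.78, so it was not particular to the selected cells. That of Cd96 was 0.81 there. Of 5 genes of tissue residence and activation 2 were higher and 3 lower, 1 and 2 past 2-fold (median -0.72). Cxcr6, a receptor of tissue-resident lymphocytes, had 6 UMIs in 4 cells and 8 UMIs in 5 cells (-1.97, -3.66 to -0.14). The higher genes were Crem, with 0 UMIs and 11 UMIs in 7 cells, and Icos, at 80.2 and 172 CPM (0.81, -0.93 to 4.23).

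Among 18 cytokine and chemokine receptors 8 were higher and 10 lower, 3 and 3 past 2-fold (median -0.23). Il18r1 was at 1043 CPM (681 to 1528) and 570 CPM (447 to 717), a log2 ratio of -0.89 (-1.54 to -0.17). Cxcr4 (chromosome 1, 128588199 to 128592293), the receptor for CXCL12, had 0 UMIs and 39 UMIs in 17 cells, 14 of them in 1 cell. Its log2 ratio was 1.34 against the floor, with an exact lower bound of 0.97. In the other barcodes of the libraries its log2 ratio was also positive, at 2.24.

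Transcription factors and adhesion genes were balanced in number. Of 16 factors 8 were higher and 8 lower, 4 and 4 past 2-fold. Ikzf1 was higher, at 602 and 1172 CPM (0.92, 0.19 to 1.83), and Rora, a factor of innate-like lymphocytes, was lower, at 802 and 383 CPM (-1.09, -1.85 to -0.24). Of 18 adhesion genes 11 were higher and 7 lower, 3 and 3 past 2-fold. Arhgap45, a GTPase-activating protein of blood cells, was found in 7 of 20 and 74 of 89 cells at 762 CPM (459 to 1190) and 1672 CPM (1455 to 1911), a log2 ratio of 1.10 (0.45 to 1.89). The log2 ratio of Arhgap45 was also positive in the other barcodes (1.69), in B cells (0.71) and in macrophages (1.25). Itgb1, the beta chain of collagen- and fibronectin-binding integrins, was at 682 and 227 CPM (-1.61, -2.50 to -0.63). In the other barcodes the log2 ratio was 0.61 for Itgb1, 0.84 for Ikzf1 and -0.67 for Rora. Rora stood higher there, at 1277 and 803 CPM, than in the selected cells. Arhgap15, the gene with most UMIs in the list, was level at 4614 and 4796 CPM.

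**Figure D5:**
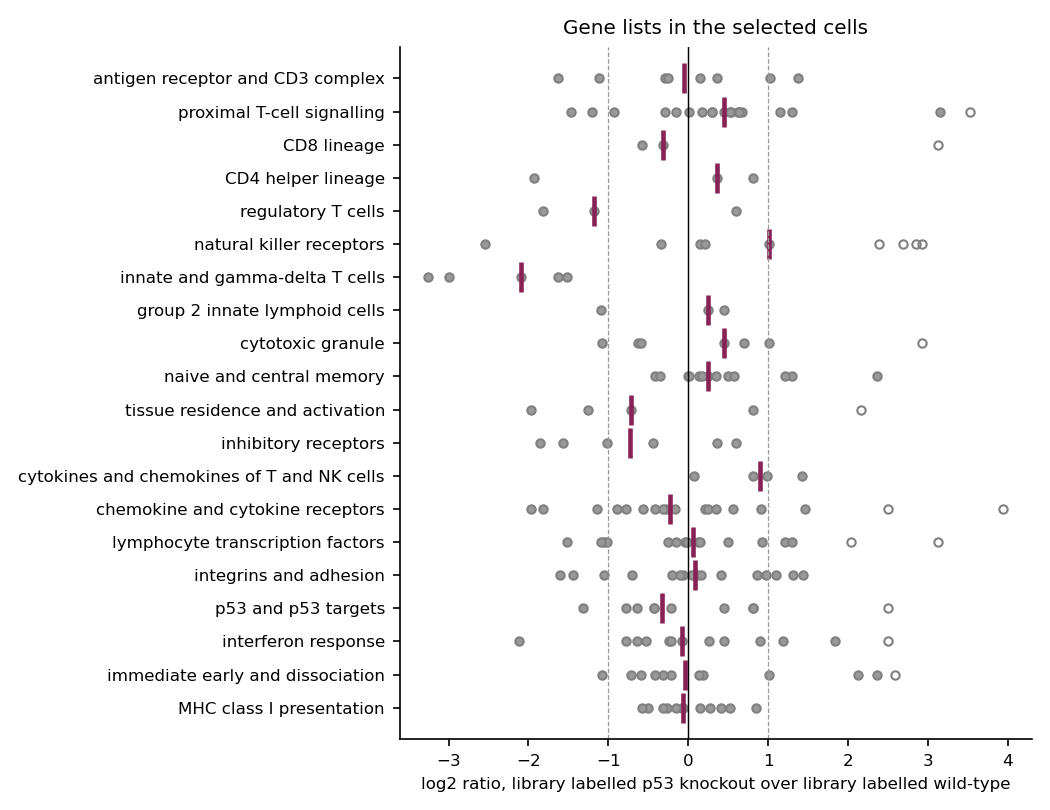
Log2 ratio of the level under the p53 knockout label over that under the wild-type label for genes with at least 10 UMIs in the selected cells (circles, open where 1 library had 0 UMIs) and the median of each list (red bars); dashed lines mark 2-fold. All 5 innate and gamma-delta genes lie below -1, and the other medians lie between -1.19 and 1.01.

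Genes of p53 and its targets had 4 higher and 6 lower of 10, 1 and 1 past 2-fold (median -0.32). Sesn1, a stress-response target, had 9 UMIs in 8 cells and 19 UMIs in 17 cells (-1.32, -2.50 to 0.04), and Bax, which promotes apoptosis, had 0 UMIs and 14 UMIs. The median was -1.68 without the cells named above. Of 34 cell cycle genes only 2 reached 10 UMIs. Interferon-response genes had 6 higher and 7 lower of 13, 3 and 1 past 2-fold, immediate early genes 6 and 6 of 12, 4 and 1 past 2-fold, and MHC class I genes 5 and 7 of 12 with 0 past 2-fold. H2-K1 was at 2488 and 3328 CPM (0.41, 0.03 to 0.83) and B2m at 1083 and 1055 CPM. In the other barcodes the log2 ratios of H2-K1 and B2m were 1.30 and 1.01.

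The 12 genes with the highest ratio by the rule for named genes all had 0 UMIs under the wild-type label. They were Ssb, Cxcr4, Ctse, Als2cl, Cdk19, Traf1, Tbc1d10c, Lmbr1l, Cept1, Cmip, Galnt6 and Lat, with 29 to 39 UMIs under the p53 knockout label. Their log2 ratios against the floor were 0.91 to 1.34, with exact lower bounds of 0.52 to 0.97. Ctse, an aspartic protease, was the most widespread, with 36 UMIs in 29 of 89 cells. Tbc1d10c, which restrains Ras and calcineurin signalling in lymphocytes, had 30 UMIs in 25 cells.

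At the other end, among genes whose level in the selected cells of the higher library was at least that over all its barcodes, were Rbfox1, Abcc9, Cd163l1, Crip1, Nrip1, Oip5os1, Sulf1, Ezr, Gpc6, Il23r, Trim26 and Dipk1a, with log2 ratios of -4.91 to -2.03. Several rest on 1 cell. Rbfox1, a splicing factor of muscle and neurons, had 20 UMIs of which 18 were in 1 cell, and Abcc9, a channel subunit of pericytes, 17 UMIs of which 12 were in 1 cell. Nrip1, a nuclear receptor corepressor, had 13 UMIs in 7 cells and 13 UMIs in 12 cells, a log2 ratio of -2.36 (-3.59 to -1.13), and Crip1 had 13 UMIs in 5 cells and 12 UMIs in 9 cells (-2.47, -3.74 to -1.23).

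RNA of other cell types was present in the selected cells and differed between the libraries. The rule itself limits cardiomyocyte, B-cell, macrophage and endothelial UMIs, so sums of such genes below those of the other barcodes were partly fixed in advance. The 14 cardiomyocyte genes, among them the capped Ttn and Ryr2, summed to 11600 CPM under the wild-type label and 3257 CPM under the other. The other barcodes had 32220 and 12550 CPM. Under the p53 knockout label 13 of the 14 were lower, and none was at 0. Fibroblast genes were at 3410 and 2726 CPM against 7613 and 10110 CPM, with 3 and 1 of 15 at 0 UMIs, and endothelial genes at 2849 and 2187 CPM against 6550 and 8259 CPM, with 2 and 1 of 15 at 0. Globin and other red-cell genes were at 642 and 2023 CPM against 733 and 2623 CPM. B-cell genes summed to 883 and 758 CPM, below the 1507 and 1814 CPM of the other barcodes, with 12 and 6 of 16 at 0. Macrophage genes were at 1043 and 734 CPM against 1773 and 2139 CPM, with 11 and 3 of 15 at 0. Genes of pericytes and smooth muscle were at 1324 CPM (911 to 1859) and 125 CPM against 1059 and 797 CPM. They were thus not below the other barcodes under the wild-type label, where 12 of the 33 UMIs were Abcc9 in 1 cell. At least 2 fibroblast UMIs were held by 8 of 20 and 32 of 89 selected cells, against 52.4% and 61.6% of other barcodes. The part of this RNA in the ratios between the libraries was not tested.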

How the data were processed

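The deposited files hold whole-number counts of UMIs per gene and barcode for the 2 libraries, the only unit used. Cell Ranger, Seurat and the build mm10 are named in the submitters' processing notes, with no versions in the sources used here. The lowest total of a barcode was 500 UMIs in both libraries. Of 32589 gene identifiers 32522 matched GENCODE vM21, which gave the positions. A further 7 list symbols were not matched.

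Barcodes were selected by the stated rule, UMIs were summed per library over the selected cells, and levels were divided by the summed UMIs outside mitochondrial genes (CPM). Log2 ratios had 0.5 UMI added to each sum. Intervals were exact (Poisson for sums, Clopper-Pearson for shares, conditional binomial for ratios) at 95% and cover counting error only. For a gene with no UMI in 1 library, 3 UMIs in its selected cells served as a floor, and the exact interval reaches below such a ratio. Shares were thinned to 500 UMIs per cell (seed 11). No doublet caller was run; an alternative left out cells with 2 or more fibroblast or mural UMIs or in the top 5% of UMIs. Python 3.11.15, NumPy 2.4.6, SciPy 1.17.1, pandas 2.3.3 and matplotlib 3.10.9 were used, and the sums and intervals were checked on simulated data.

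Named genes were the 8 of the rule, up to 4 members of each of 31 lists with the most UMIs plus its extremes, the 12 highest and 12 lowest ratios among genes with at least 20 UMIs (mitochondrial, ribosomal, haemoglobin, Xist, Y-linked and unnamed genes left out, as were genes whose CPM in the selected cells of the higher library was below that over all its barcodes, such as Ttn and Abca8a), the 20 leading genes over other barcodes, and Trp53. Some genes that these rules take are not reported here. Members of these lists named beyond that rule were chosen after their values were seen. The cells, lists and rules were chosen with earlier results of these data known.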

Additional observations from a re-analysis of the deposited data

How the results depend on the processing

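The difference in the share of T and NK cells kept its direction under all alternatives run: at least 3 UMIs of the 8 genes, a quality filter (200 genes, 50% mitochondrial UMIs), thinning, and barcodes under the cardiomyocyte limit. Leaving out cells with fibroblast or mural UMIs or in the top 5% of UMIs (11 and 33 cells) moved 31 values and turned 5, with 159 the same: the shares were 0.0560% and 0.554%, 200 genes were at least 2-fold higher and 133 lower, 50 genes were at least 4-fold over other barcodes under the wild-type label, and thinned shares of Trdc and of Il23r or Cd163l1 there were 0%. Medians became -0.30 (proximal signalling), -1.20 (NK receptors), -0.24 (naive and central memory), -0.30 (adhesion) and -1.68 (p53). Ratios of Cd163l1 (1.31), F13a1 (0.92), H2-K1 (-0.046) and Ifi27l2a (0.39) changed sign. With so few wild-type UMIs left, the signs of Cd163l1, F13a1 and Ifi27l2a depend on the 0.5 UMI added to each sum. The cause of these changes was not tested beyond the fewer cells left. Counts past 2-fold were 826 higher and 721 lower from 10 UMIs, 117 and 51 from 40 UMIs, and 145 higher with 2 UMIs added to each sum, where 32.3% of the genes past 2-fold were higher instead of 58.2%; median-of-ratios scaling gave 49.3%. From 20 UMIs, 23 and 241 genes were at least 4-fold over other barcodes. Unthinned, 21.3% of cells labelled p53 knockout had a Cd8 gene and 60.7% had Lef1, Tcf7 or Ccr7. With at least 3 UMIs of the 8 genes, Sulf1 turned to 0.27. The group of 3 naive genes, that of Il23r and Cd163l1, thinning before the rule and the alternatives of single genes were added after seeing the data.

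No paired analysis was possible because each group has 1 library. Leaving out a replicate was not run, as each group has 1. The 20 cells labelled wild-type hold 24924 nuclear-gene UMIs, so a gene under 120 CPM there is not told from 0.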
